A study of Bos taurus with 8 samples.

Results

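Amino acids enter and leave cells through membrane carriers of the solute carrier (SLC) superfamily, and this account follows 7 of its families in bovine uterine epithelial cells given progesterone. Members were chosen by name alone, as every gene of the deposited table whose symbol is SLC1A, SLC3A, SLC6A, SLC7A, SLC36A, SLC38A or SLC43A followed by a number. The rule found 58 of the 28709 genes listed. The cells were BUTE, an immortalized wild-type line from the uterine epithelium of a Holstein cow, so that all libraries come from 1 animal's line. One group received 10 µM progesterone for 24 h and the other the vehicle DMSO, with 4 libraries each. Both groups had first been held for 24 h without serum or steroids, and both had insulin-like growth factor 1 throughout, at 50 ng/ml in the treatment medium. Poly(A) RNA was sequenced, and the libraries held between 23810841 and 32509792 estimated counts. Whether a group's libraries were separate cultures is not in the labels, so p-values measure only the spread between these libraries. In bulk RNA, fewer cells of a kind and less RNA per cell cannot be told apart.

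The families differ in how they work. SLC7 light chains such as SLC7A5, SLC7A8 and SLC7A11 reach the cell surface bound to a heavy chain, SLC3A2 (also called 4F2hc or CD98), and exchange one amino acid for another. SLC1 and SLC38 carriers draw on the sodium gradient and load cells with glutamate, glutamine, alanine and serine, which the exchangers can then trade for leucine and other essential amino acids. SLC6 holds carriers for neurotransmitters, glycine, taurine and creatine, SLC36 proton-coupled carriers found in part on lysosomes, and SLC43 uniporters for large neutral amino acids. In ruminants, carriers of the uterine epithelium help to supply amino acids to the fluid that feeds the conceptus before it attaches, and progesterone is the hormone of that period.

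Of the 58 members, 29 had enough counts to be tested, 21 fell below the filter on low counts and 8 had no count in any library. Levels are in CPM, the estimated counts of a gene scaled to the depth of each library, and a count of 0 still allows up to 3 counts per library, or 0.0917 to 0.124 CPM depending on depth, for counting error alone. All 3 SLC43 genes were measured, as were 8 of 11 SLC38, 7 of 12 SLC7, 3 of 7 SLC1, 2 of 4 SLC36, 1 of 2 SLC3 and 5 of 19 SLC6 genes. The members at 0 were the glutamate carrier SLC1A3, SLC6A18, SLC7A3, SLC7A9, SLC7A14, SLC36A2, SLC36A3 and SLC38A4. SLC7A9 is the partner of the other heavy chain, SLC3A1, which had at most 2 counts in a library. Below the filter lay 13 SLC6 genes, among them the transporters of dopamine (SLC6A3) and serotonin (SLC6A4), the glycine carrier SLC6A5 and the broad carrier SLC6A14. Of the 21 genes below the filter, 12 had at most 3 counts in every library, and the highest count was 13.

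**Figure D1:**
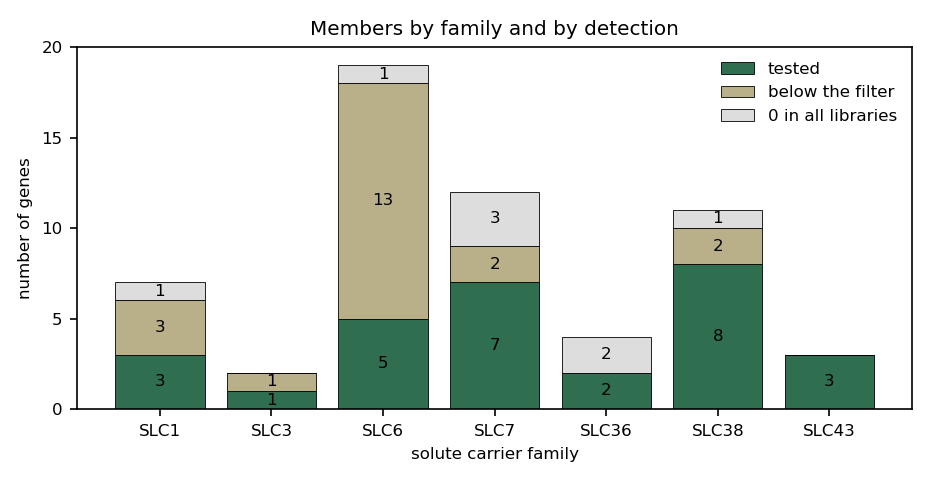
Number of genes (vertical axis) in each solute carrier family (horizontal axis), split by whether they were tested, fell below the filter on low counts or had no count in any library. SLC6 is the largest family with 19 genes, of which 5 were tested, while all 3 SLC43 genes were tested.

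Some members lie side by side in the genome and were not detected together. In the order of protein-coding genes in RefSeq's assembly ARS-UCD2.0, SLC38A4, SLC38A2 and SLC38A1 follow one another on chromosome 5, and SLC38A4 was at 0 while the other two were measured. On chromosome 7, SLC36A3 and SLC36A2 were at 0 and the gene next to them, SLC36A1, was measured. The table also lists 24 placeholder genes whose product names place them in these families. Of these, 21 are named as a cationic amino acid transporter or as like member 3 of a family. None of the 24 passed the filter, and their highest count in a library was 5.

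DMSO libraries R7 and R9 stood apart from the other 6, so fold changes are also given without them for many genes. Across genes, their log2 CPM correlated with each other at 0.992 and with the other 6 libraries at 0.949 to 0.962, while those 6 correlated among themselves at 0.983 to 0.992. Markers of epithelium were present, among them KRT8 at 1348 to 2107 CPM with progesterone and 2286 to 2789 CPM with DMSO, and CDH1 at 13.1 to 22.7 CPM with progesterone and 10.5 to 17.3 CPM with DMSO. EPCAM was at or below 0.595 CPM with progesterone and 2.53 CPM with DMSO. The 5 epithelial markers summed to 1727 to 2640 CPM with progesterone and 2815 to 3067 CPM with DMSO. All 6 stromal markers were measured, and their summed level was 11918 to 13154 CPM with progesterone and 13102 to 20358 CPM with DMSO, highest in the vehicle libraries that stood apart. Of 3 immune markers, PTPRC was at 0, CD3E was below the filter and CD68 was measured, and their sum was 0.991 to 2.04 CPM with progesterone and 1.84 to 2.88 CPM with DMSO. The endothelial markers summed to 3.29 to 5.87 CPM with progesterone and 2.34 to 4.44 CPM with DMSO, and 3 of the 4 were below the filter. Of 4 smooth muscle markers 3 were measured, with a sum of 1433 to 1965 CPM with progesterone and 1901 to 2797 CPM with DMSO. No marker passed the test between groups. An unadjusted edgeR p under 0.05 was found for 3 of 5 epithelial and 2 of 6 stromal markers, against 26.8% of all genes. All of these were lower with progesterone, and the smallest adjusted p among the epithelial markers was 0.0744. Without R7 and R9 it was 2 epithelial and 3 stromal markers, all lower, against 15.9% of all genes. The smallest adjusted p among the stromal markers was then 0.0538. Whether marker levels bear on the transporters was not tested.

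With all 8 libraries, 1 of the 29 measured transporters passed the edgeR quasi-likelihood test, with p adjusted over all genes after Benjamini and Hochberg and a threshold of 0.05, and it was lower with progesterone. That is 3.45% of the measured members, against 2.65% of the 13557 genes tested, where 1.69% were called higher and 0.959% lower. An unadjusted p under 0.05 was found for 8 members, 27.6%, against 26.8% of all genes, so the transporters were called about as often as genes at large. DESeq2 called 5 of the 29, 17.2%, against 13.5% of all genes, and limma voom called 1, 3.45%, against 2.04%. The median log2 fold change of the 29 (progesterone over DMSO) was -0.08, against -0.01 over all genes tested, and 18 of 29 had a negative value, 62.1% against 51.0%. Without DMSO R7 and R9 none passed in edgeR, where 162 of 13764 genes (1.18%, with 0.995% higher and 0.182% lower) did, and 4 members had an unadjusted p under 0.05, 13.8% against 15.9%. The median of the 29 was then -0.01, against 0.01 for all genes.

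The transporter that passed was SLC7A8 (Entrez Gene 536818, chromosome 10), which encodes LAT2, a light chain that exchanges neutral amino acids and is known from the basolateral side of epithelia. Progesterone libraries R1, R2, R3 and R6 held 13.9, 13.4, 14.0 and 13.2 CPM, against 20.6, 17.9, 23.8 and 25.9 CPM in DMSO libraries R1, R3, R7 and R9. The groups did not overlap, and the progesterone libraries lay within 1.06-fold of each other while the DMSO libraries spread 1.44-fold. SLC7A8 fell with progesterone to a mean of 13.6 ± 0.401 CPM, against 22.05 ± 3.51 CPM with DMSO (SD, n = 4 each). That was 1.62-fold lower, with a log2 fold change of -0.69 ± 0.13 (SE), a 95% interval of -0.98 to -0.41 and an edgeR adjusted p of 0.0292. Without DMSO R7 and R9 the log2 fold change was -0.49 ± 0.12 and the edgeR adjusted p 0.0774. With all 8 libraries and a term for R7 and R9 in edgeR, it was -0.50, with an adjusted p of 0.0392. That term also leaves the contrast resting on DMSO R1 and R3. With 1 library left out at a time, the gene passed without DMSO R1 or R3 and did not pass without DMSO R7 or R9 or any 1 progesterone library, with adjusted p between 0.0192 and 0.0987 and a log2 fold change between -0.78 and -0.61.

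SLC3A2 (507107, chromosome 29), the heavy chain that SLC7A8 needs, pointed the other way and did not pass. Progesterone libraries R1, R2, R3 and R6 had 210.2, 204, 243 and 181 CPM, and DMSO libraries R1, R3, R7 and R9 had 171, 164, 162 and 178 CPM. All 4 progesterone libraries were above all 4 DMSO libraries, by a narrow margin for progesterone R6, and here DMSO R7 and R9 were like the other vehicle libraries. SLC3A2 had a log2 fold change of 0.31 ± 0.10 SE with an interval of 0.10 to 0.53 and an edgeR adjusted p of 0.0888, and it was 0.34 ± 0.11 without R7 and R9 (adjusted p 0.176). DESeq2 gave SLC3A2 an adjusted p of 0.0295.

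SLC7A5 (282369, chromosome 18) encodes LAT1, the leucine-importing partner of the same heavy chain and a major feeder of growth signalling. Its levels were 36.6, 40.2, 43.3 and 46.5 CPM in progesterone R1, R2, R3 and R6, against 40.6, 43.6, 63.0 and 60.4 CPM in DMSO R1, R3, R7 and R9. DMSO R1 and R3 lay inside the progesterone range, and DMSO R7 and R9 were above every other library. SLC7A5 had a log2 fold change of -0.32 ± 0.15 SE (edgeR adjusted p = 0.210). Without R7 and R9 it was -0.0027 ± 0.11, with an interval of -0.25 to 0.24.

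SLC7A11 (524078, chromosome 17) encodes xCT, which brings in cystine for glutathione synthesis in exchange for glutamate. It had 6.51, 8.24, 6.85 and 11.2 CPM in progesterone R1, R2, R3 and R6, against 5.70, 8.15, 25.6 and 21.1 CPM in DMSO R1, R3, R7 and R9. Its vehicle libraries therefore spread 4.49-fold, against 1.72-fold among the progesterone libraries. The log2 fold change of -0.89 ± 0.45 SE (edgeR adjusted p = 0.243) rested on R7 and R9, without which the sign turned, to 0.25 ± 0.25 with an interval of -0.29 to 0.80.

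**Figure D2:**
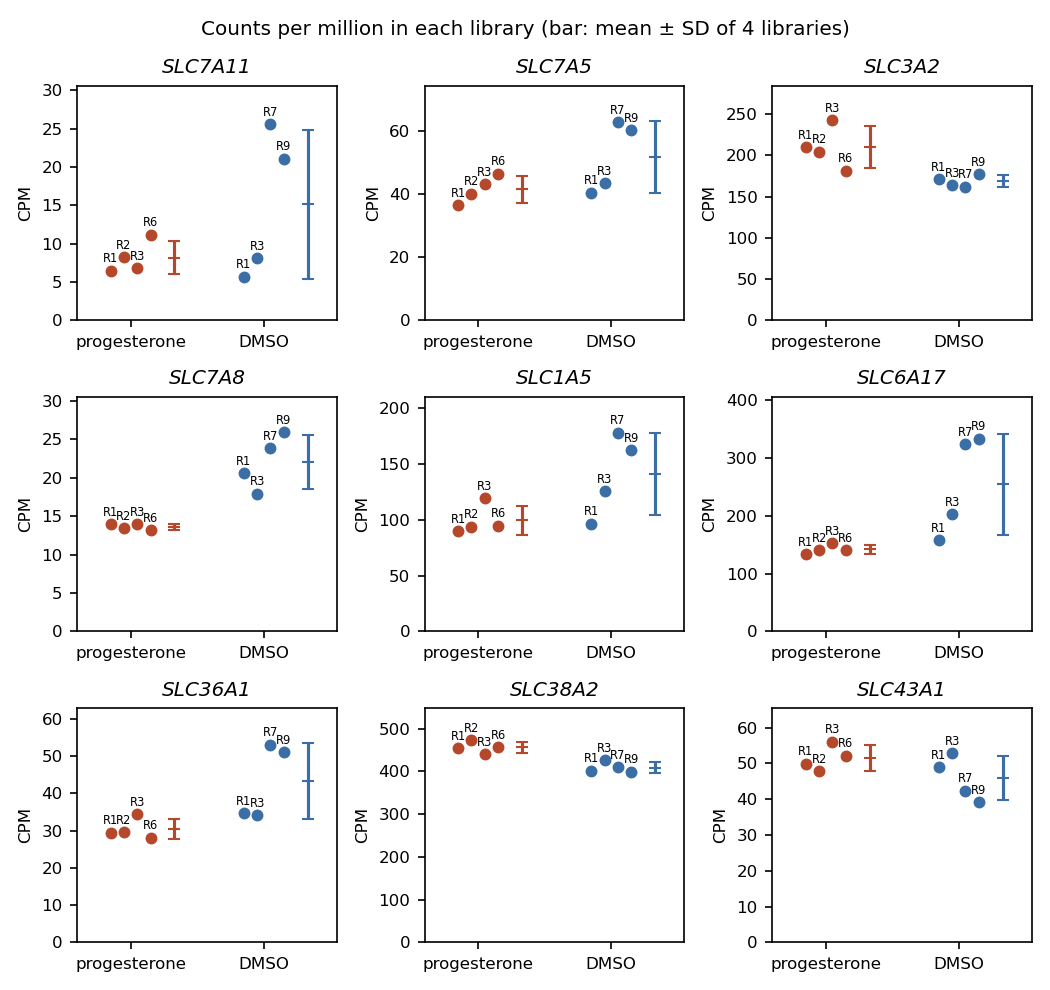
Level in CPM (vertical axes, from 0) in each progesterone library and each DMSO library for 9 transporters, with each point labelled by its library number and bars for the mean ± SD of 4 libraries. SLC7A8 lies between 13.2 and 14.0 CPM in all progesterone libraries, while DMSO R7 and R9 are far above the other vehicle libraries for SLC7A11, SLC6A17 and SLC36A1.

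The remaining light chains of SLC3A2 did not pass. SLC7A6, the y+LAT2 exchanger of arginine for glutamine, was at 29.2 to 35.7 CPM with progesterone and 35.7 to 49.9 CPM with DMSO, and the ranges only just separated (edgeR adjusted p = 0.121). Its log2 fold change was -0.34 ± 0.12 SE, or -0.13 ± 0.10 when R7 and R9 were left out. A gene on the opposite strand, SLC7A6OS, is also in the table, and no source used here says whether counting used strand. SLC7A7, the related y+LAT1, was near 1 CPM in both groups, at 0.977 ± 0.371 CPM with progesterone and 0.861 ± 0.189 CPM with DMSO.

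The cationic carriers of the family import arginine, lysine and ornithine without a heavy chain, and neither of the 2 measured passed. SLC7A1 (CAT1) was at 106 to 127 CPM with progesterone and 117 to 155 CPM with DMSO, and DMSO R7 and R9 were the highest libraries, at 155 and 134 CPM. Its log2 fold change was -0.18 ± 0.11 SE with an interval of -0.41 to 0.06, and -0.01 ± 0.09 without these libraries. SLC7A2 (538708, chromosome 27), the inducible CAT2, was at 3.24, 4.72, 3.86 and 4.59 CPM in progesterone R1, R2, R3 and R6, against 3.48, 3.67, 15.6 and 14.2 CPM in DMSO R1, R3, R7 and R9. DMSO R7 and R9 were far above the other 6 libraries, among which the groups overlapped. The log2 fold change of SLC7A2 was -1.18 ± 0.50 SE (edgeR adjusted p = 0.172) and, without these libraries, 0.21 ± 0.22.

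None of the 3 measured SLC1 genes passed in edgeR, and DESeq2 and limma voom called none, against 13.5% and 2.04% of all genes. An unadjusted edgeR p under 0.05 was found for 1 of the 3, against 26.8% of all genes. SLC1A5 (282355, chromosome 18), the glutamine exchanger ASCT2, had the smallest p among the SLC1 genes. It was at 89.9, 94.0, 119 and 94.7 CPM in progesterone R1, R2, R3 and R6, against 96.5, 126, 178 and 163 CPM in DMSO R1, R3, R7 and R9. DMSO R1 lay within the progesterone range, and DMSO R7 and R9 were highest. Its log2 fold change was -0.50 ± 0.18 SE (edgeR adjusted p = 0.120) and -0.15 ± 0.13 without R7 and R9. SLC1A4 (ASCT1), which carries alanine, serine and cysteine, was at 89.9 ± 5.36 CPM with progesterone and 94.9 ± 9.94 CPM with DMSO, with an interval for the log2 fold change of -0.28 to 0.13. SLC1A1, the glutamate carrier EAAT3, was low, at 1.99 to 5.67 CPM with progesterone and 4.08 to 9.84 CPM with DMSO, with a log2 fold change of -0.76 ± 0.37 SE, or -0.13 ± 0.35 when R7 and R9 were left out. SLC1A2, the glial-type glutamate carrier EAAT2, was below the filter, with 1, 2, 2 and 3 counts in progesterone R1, R2, R3 and R6 and 13, 8, 7 and 6 counts in DMSO R1, R3, R7 and R9. It is named after its counts were seen, and the filter kept it out of the main fit. An edgeR fit without the filter tested 50 members, SLC1A2 among them. There 1 member, SLC7A8, passed, and 350 of the 19943 genes in that fit passed in all. An unadjusted p under 0.05 was found for 9 of the 50 members, and the share over all genes was not taken in that fit.

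None of the 5 measured SLC6 genes passed in edgeR, where 2 were below an unadjusted p of 0.05. DESeq2 called 2 of the 5 and limma voom none. Over all genes tested, the shares were 26.8% below an unadjusted edgeR p of 0.05, 13.5% called by DESeq2 and 2.04% by limma voom. SLC6A17 (407174, chromosome 3), known from neuronal vesicles as a carrier of neutral amino acids, had the smallest p of the 5. Progesterone R1, R2, R3 and R6 had 134, 141, 153 and 141 CPM, against 158, 203, 324 and 333 CPM in DMSO R1, R3, R7 and R9. The groups did not overlap, and every vehicle library was above every progesterone library. SLC6A17 had a log2 fold change of -0.84 ± 0.22 SE, with an edgeR adjusted p of 0.0661, and -0.33 ± 0.11 without R7 and R9 (adjusted p 0.164).

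The taurine carrier SLC6A6 (282366, chromosome 22) showed the opposite split of the vehicle libraries. It was at 186, 138, 161 and 126 CPM in progesterone R1, R2, R3 and R6, against 224, 184, 66.7 and 52.4 CPM in DMSO R1, R3, R7 and R9. DMSO R7 and R9 were the 2 lowest of the 8, and DMSO R1 was the highest. Its log2 fold change was 0.21 ± 0.46 SE when all 8 were used and -0.41 ± 0.15 when R7 and R9 were not, and the gene did not pass in either (edgeR adjusted p = 0.790 and 0.227). Of the other 3, SLC6A2, the noradrenaline transporter, was at 1.90 to 3.35 CPM with progesterone and 0.870 to 1.65 CPM with DMSO (edgeR adjusted p = 0.0970, log2 fold change 0.96 ± 0.31 SE). DMSO R7 and R9 were its lowest libraries, and without them the log2 fold change was 0.61 ± 0.30 (adjusted p 0.359). The creatine transporter SLC6A8 had a log2 fold change of 0.24 ± 0.11 SE. For the glycine transporter SLC6A9 it was -0.29 ± 0.22, and 0.14 ± 0.17 without R7 and R9.

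Of the SLC36 genes, SLC36A1 (518759, chromosome 7), the proton-coupled carrier PAT1 of the lysosome and cell surface, was at 29.5, 29.6, 34.5 and 28.1 CPM in progesterone R1, R2, R3 and R6, against 34.8, 34.2, 53.1 and 51.0 CPM in DMSO R1, R3, R7 and R9. The groups overlapped by the small difference between progesterone R3 and DMSO R3. It did not pass (edgeR adjusted p = 0.0905, log2 fold change -0.51 ± 0.16 SE), although DESeq2 called it. Without R7 and R9 its log2 fold change was -0.17 ± 0.10. SLC36A4 (PAT4) had the opposite sign, with 31.5 ± 2.44 CPM with progesterone and 25.4 ± 6.54 CPM with DMSO. The change of SLC36A4 was 0.31 ± 0.17 SE (log2) over 8 libraries, against 0.04 ± 0.11 when R7 and R9 were left out.

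None of the 8 measured SLC38 genes passed, and none had an unadjusted p under 0.05 in edgeR, nor did DESeq2 or limma voom call one. Over all genes, 26.8% had an unadjusted edgeR p under 0.05, and DESeq2 called 13.5%. SLC38A2 (338044, chromosome 5) encodes SNAT2, the amino acid-responsive importer of alanine, serine and glutamine. It had 455, 473, 440 and 457 CPM in progesterone R1, R2, R3 and R6, against 402, 426, 410 and 399 CPM in DMSO R1, R3, R7 and R9. All progesterone libraries were above all DMSO libraries, with a spread of 1.08-fold among the progesterone and 1.07-fold among the DMSO libraries. The log2 fold change was 0.16 ± 0.07 SE with an interval of -0.01 to 0.32 (edgeR adjusted p = 0.203), so that a change above 1.5-fold lay outside the interval.

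SLC38A1 (SNAT1), its neighbour on chromosome 5 and a glutamine importer, was at 206 ± 5.14 CPM with progesterone and 228 ± 23.4 CPM with DMSO (log2 fold change -0.15 ± 0.09 SE, or -0.01 ± 0.08 when R7 and R9 were left out). SLC38A9, the lysosomal arginine sensor that couples amino acids to the kinase mTORC1, was at 23.6 ± 0.848 CPM with progesterone and 24.6 ± 3.94 CPM with DMSO, where R7 and R9 were highest, and its log2 fold change was -0.06 ± 0.12 SE with and 0.16 ± 0.10 without them. SLC38A7, a lysosomal glutamine exporter, had a log2 fold change of -0.18 ± 0.12 SE with and -0.18 ± 0.13 without R7 and R9. The other 4, SLC38A3, SLC38A6, SLC38A8 and SLC38A10, had log2 fold changes between -0.20 and 0.01, and SLC38A3 and SLC38A8 were near 1 CPM or less.

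None of the SLC43 genes passed or had an unadjusted p under 0.05 in edgeR, and DESeq2 and limma voom called none. The shares over all genes were 26.8% for an unadjusted edgeR p under 0.05 and 13.5% called by DESeq2. SLC43A1 (614153, chromosome 15), the branched-chain amino acid uniporter LAT3, was at 49.9, 47.8, 56.1 and 52.2 CPM in progesterone R1, R2, R3 and R6, against 49.0, 52.8, 42.4 and 39.2 CPM in DMSO R1, R3, R7 and R9. The groups overlapped, and DMSO R7 and R9 were the lowest libraries. The log2 fold change was 0.17 ± 0.11 SE, and 0.03 ± 0.10 without them. SLC43A2 (LAT4) had a log2 fold change of 0.09 ± 0.14 SE. SLC43A3, which carries purine bases and not amino acids, was at 0.515 to 1.93 CPM with progesterone and 0.271 to 1.51 CPM with DMSO, lowest in R7 and R9, and its log2 fold change was 0.41 ± 0.56 SE with and -0.22 ± 0.48 without these.

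**Figure D3:**
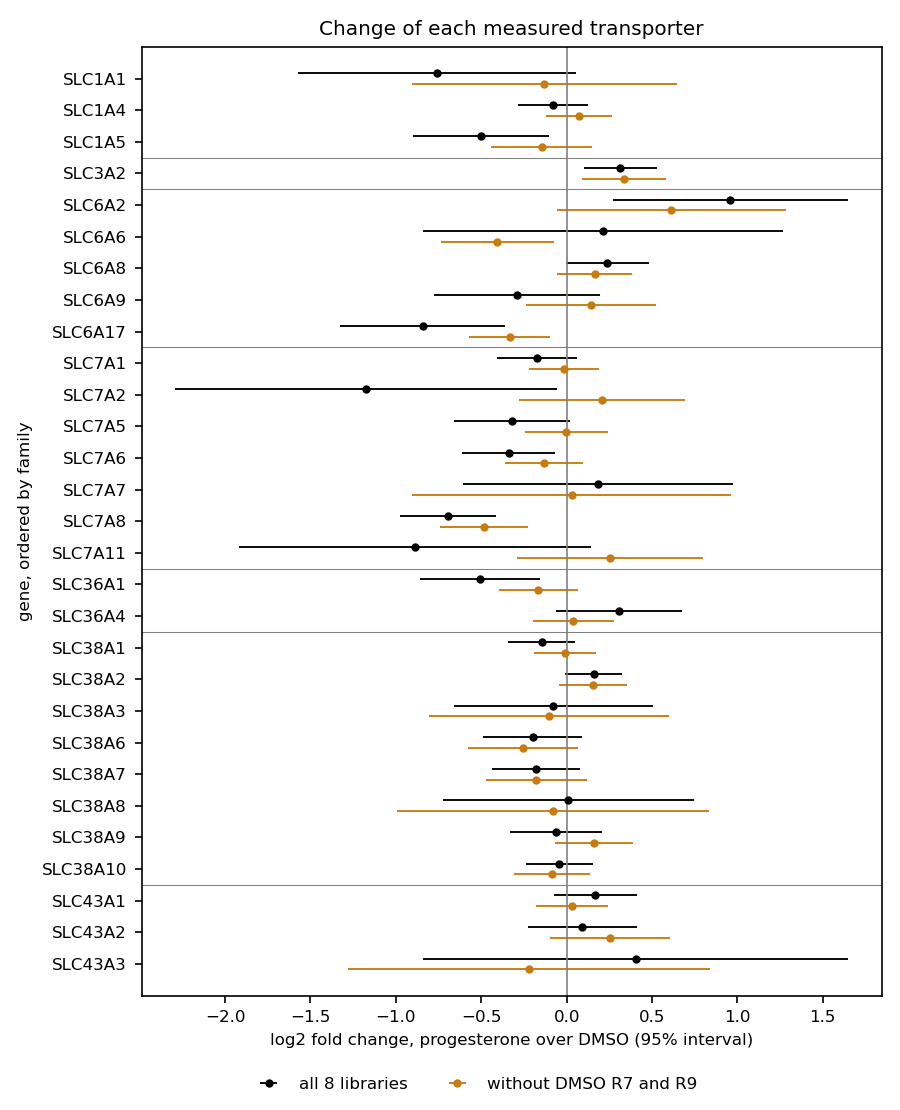
Log2 fold change of progesterone over DMSO (horizontal axis) for the 29 measured transporters, ordered by family, with 95% intervals from edgeR for all 8 libraries and without DMSO R7 and R9. The points for 8 genes change sign between the fits, among them SLC7A2, SLC7A11 and SLC6A6. SLC7A8 stays at -0.69 and -0.49 with intervals below 0.

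The intervals also bound what was not called. With all libraries the 95% interval lay within a 1.5-fold change in either direction for 12 of the 29 transporters, among them SLC1A4, SLC3A2, SLC7A1 and 6 of the SLC38 genes. Without R7 and R9 this held for 18, which then included SLC1A5, SLC7A5, SLC6A17 and SLC36A1. That fit rests on DMSO R1 and R3, and R7 and R9 were left out after they were seen to stand apart. Its narrower intervals therefore do not bound the change over all 8 libraries. With all 8, the interval was -1.32 to -0.36 for SLC6A17 and -0.86 to -0.16 for SLC36A1. For SLC7A7, SLC38A8 and SLC43A3, near 1 CPM, the intervals spanned changes of over 1.5-fold both ways. A difference of that size could not be told from none in these libraries. With all 8 libraries this also held for SLC6A6, at 52.4 to 224 CPM, with an interval of -0.84 to 1.27. For SLC38A3, near 1 CPM, the interval was -0.66 to 0.51.

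Across the measured transporters, more of the spread lay among the vehicle libraries than among those with progesterone. The highest DMSO library exceeded the lowest by a larger factor than in the progesterone group for 22 of 29 members, 75.9%, against 66.4% of the 13527 tested genes with a count in every library. DMSO R7 and R9 were both above the other 6 libraries for 14 members, 48.3%, against 25.2% of all genes tested. They were both below the other 6 for 5 members, 17.2%, against 24.0%. Those above were all 3 measured SLC1 genes, 6 of 7 SLC7 genes, SLC6A9, SLC6A17, SLC36A1, SLC38A1 and SLC38A9. Those below were SLC6A2, SLC6A6, SLC36A4, SLC43A1 and SLC43A3. The median over the 7 SLC7 genes of the log2 level (CPM with a prior count of 2), set against each gene's mean over the libraries, was 0.45 in both DMSO R7 and R9. It lay between -0.31 and -0.15 in the progesterone libraries and was -0.08 in both DMSO R1 and R3. The same median in R7 and R9 was 0.61 and 0.48 for SLC1, and 0.14 and 0.12 over all 29 members. For SLC3 it was -0.21 and -0.08, for SLC6 -0.04 and -0.40, and for SLC43 -0.19 and -0.30. For SLC36 it was 0.03 and 0.02, and for SLC38 -0.01 and 0.12. No label says what set R7 and R9 apart.

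**Figure D4:**
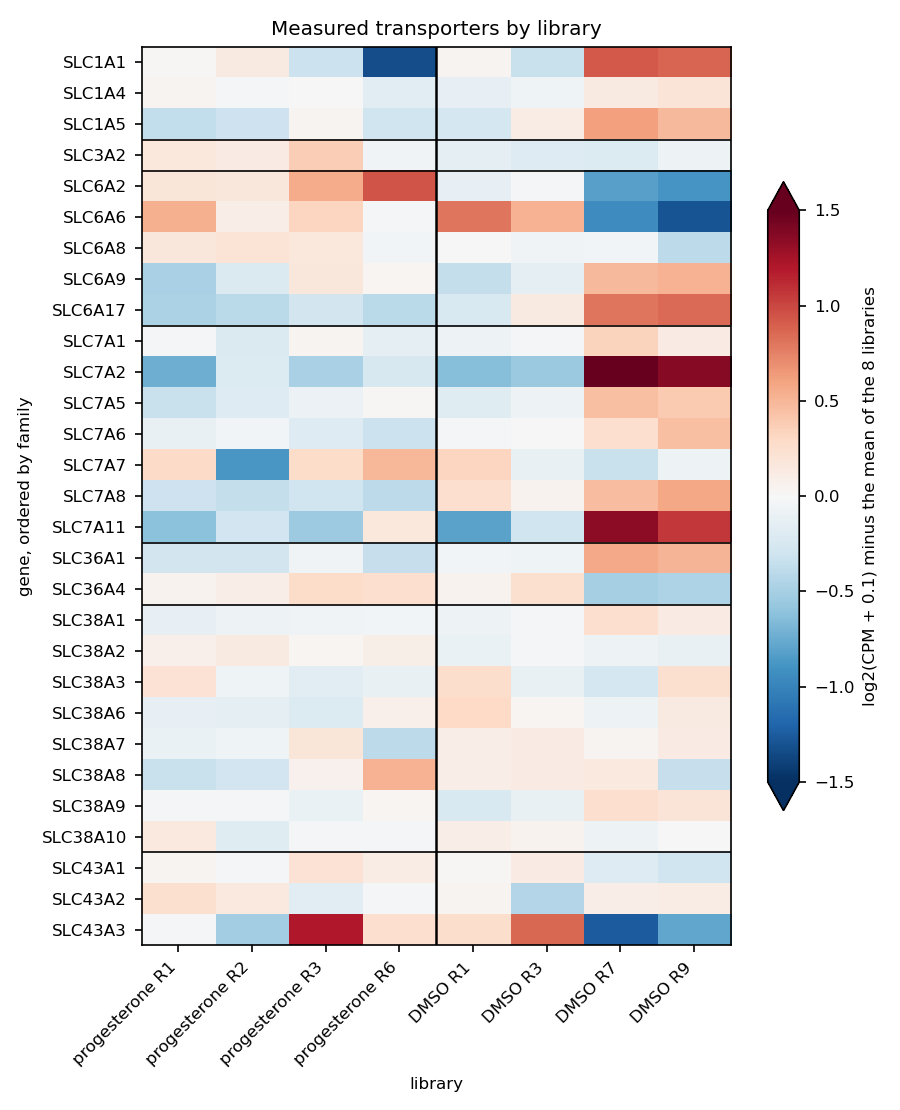
Level of each measured transporter (rows, by family) in each library (columns, progesterone left of DMSO), as log2(CPM + 0.1) minus the mean of the 8 libraries, on a colour scale that ends at 1.5 in both directions. DMSO R7 and R9 are both the highest libraries for 14 genes, most of them SLC1 and SLC7, and both the lowest for 5.

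The groups did not overlap for 6 transporters, 20.7%, against 16.2% of all genes tested (7.95% higher and 8.22% lower). SLC3A2, SLC6A2 and SLC38A2 were higher with progesterone, and SLC6A17, SLC7A6 and SLC7A8 lower. Without R7 and R9, 7 members did not overlap, 24.1%, against 26.8% of genes (12.9% higher and 13.9% lower), these 6 and SLC38A9, which was then higher. Of the 8 members with an unadjusted p under 0.05 in edgeR, 3 kept it without R7 and R9, namely SLC3A2, SLC6A17 and SLC7A8, and SLC6A6 was the other member below 0.05 there.

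Genes that surround the transporters were read from lists of known function. Of 17 measured amino acid carriers outside these families, 2 fell and 15 did not pass in edgeR, while DESeq2 called 1 higher and 4 lower and limma voom 2 lower. The shares called over all genes tested were 2.65% in edgeR, 13.5% in DESeq2 and 2.04% in limma voom. An unadjusted edgeR p under 0.05 was found for 6 of the 17, against 26.8% of all genes. SFXN1, the mitochondrial serine carrier, was at 26.4, 29.2, 30.2 and 23.5 CPM in progesterone R1, R2, R3 and R6, against 35.7, 41.5, 43.4 and 41.6 CPM in DMSO R1, R3, R7 and R9 (edgeR adjusted p = 0.0303, log2 fold change -0.57 ± 0.11 SE). SLC25A15, the mitochondrial ornithine carrier, was at 58.9, 54.9, 54.1 and 49.4 CPM in progesterone R1, R2, R3 and R6, against 69.6, 79.7, 70.2 and 73.7 CPM in DMSO R1, R3, R7 and R9 (-0.43 ± 0.09, adjusted p 0.0333). Neither overlapped between groups, as held for 16.2% of all genes tested. Neither passed in edgeR without R7 and R9 (adjusted p 0.0809 and 0.0620), where their log2 fold changes were -0.48 and -0.44.

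Of 33 measured enzymes of amino acid synthesis and breakdown, 1 rose and 1 fell in edgeR, as in limma voom, while DESeq2 called 1 higher and 5 lower. The shares called over all genes were 2.65% in edgeR, 2.04% in limma voom and 13.5% in DESeq2. An unadjusted edgeR p under 0.05 was found for 11 of the 33, against 26.8% of all genes. PRODH, the first enzyme of proline breakdown, rose 2.22-fold, to 13.3 ± 2.80 CPM with progesterone, against 5.99 ± 0.912 CPM with DMSO (edgeR adjusted p = 0.0207). ALDH18A1, which starts proline and ornithine synthesis from glutamate, fell to 31.7 ± 2.90 CPM with progesterone, against 52.2 ± 10.7 CPM with DMSO (log2 fold change -0.72 ± 0.14 SE, adjusted p 0.0359). Without R7 and R9 their log2 fold changes were 1.14 and -0.42, with adjusted p of 0.0503 and 0.0832. SFXN1, SLC25A15 and ALDH18A1 each lost the call without DMSO R7, DMSO R9 or any 1 progesterone library, and PRODH likewise except without progesterone R2. Over these omissions and those of DMSO R1 and R3, the adjusted p of the 4 genes ranged from 0.0122 to 0.121.

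Among 11 measured partners and stability factors of the transporters, 3 had an unadjusted edgeR p under 0.05, against 26.8% of all genes. In edgeR 1 rose and 10 did not pass, against 2.65% of all genes called. DESeq2 and limma voom also called 1, against 13.5% and 2.04% of all genes. It was SGK1, a kinase known to raise several carriers at the cell surface, at 127 ± 36.5 CPM with progesterone and 46.02 ± 5.56 CPM with DMSO (edgeR adjusted p = 0.00784, log2 fold change 1.47 ± 0.18 SE), and it passed with each library left out. None of the 36 genes of amino acid sensing by mTORC1 passed in edgeR. An unadjusted edgeR p under 0.05 was found for 9 of the 36 (7 higher and 2 lower), against 26.8% of all genes tested. Without R7 and R9 it was found for 7 of the 36, all higher, against 15.9% of all genes. DESeq2 called 5 of the 36, against 13.5% of all genes, and limma voom none. The one with the smallest p was BMT2, the sensor of S-adenosylmethionine, at 16.9 ± 1.24 CPM with progesterone and 12.3 ± 1.19 CPM with DMSO (adjusted p 0.0626). None of the 16 regulators known for transporter targets passed in edgeR, where 2 were below an unadjusted p of 0.05, against 26.8% of all genes. Without R7 and R9, 5 of the 16 were below it, all higher with progesterone, against 15.9% of all genes. DESeq2 called 2 of the 16, against 13.5%, and limma voom none. The smallest p among these was that of HIF1A, the hypoxia-inducible factor, with a log2 fold change of 0.49 ± 0.14 SE and an edgeR adjusted p of 0.0760.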

How the data were processed

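The authors deposited 1 table of estimated counts per gene, named as length normalized, for 8 columns. Per the submitters' processing notes, the tools were Salmon 1.4.0 and bcl2fastq, without their roles or order, and the genome build was ARS-UCD1.2. The sources used here do not say how transcripts were summed to genes or whether strand was used, though the kit marks strand. Column names give each library's group but could not be matched to sample replicate numbers. No 2 libraries of a group agreed within sampling noise (chi-square per degree of freedom 14.2 to 129).

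Estimated counts were rounded, kept by filterByExpr (13557 genes), scaled by TMM and tested with edgeR 4.0.16 (quasi-likelihood, robust, two-sided, R 4.3.3) on the group alone, with Benjamini-Hochberg adjustment over all genes and a threshold of 0.05. CPM are TMM-scaled and not per length, so levels of different genes are not ranked against each other. Words such as low refer to counts, and sums over markers weigh most on the genes with the highest CPM. The standard error is the log2 fold change divided by the square root of F. Alternatives were other scalings and filters, DESeq2 1.42.0, limma 3.58.1 voom, a term for or omission of DMSO R7 and R9, a replicate block and leaving out each library.

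Members, lists, alternatives and rules were chosen with earlier results of these data known. Values in every library are given for members past the threshold, SLC7A11, SLC7A5, SLC3A2 and the member with the smallest p in each family, and for SLC7A2, SLC6A6 and SLC1A2, which were chosen after their values were seen. In each list, genes past the threshold, or else the 1 with the smallest p, are named. All 58 members were found in the RefSeq gene table (ARS-UCD2.0), used for synonyms and gene order. SLC25A18 was not matched and is not analysed here.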

Additional observations from a re-analysis of the deposited data

Results flagged for a closer look

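In 4 of the 58 sets of 4 libraries (29 transporters in 2 groups), 1 library lay far from the other 3, by Dixon's criterion at 95% on the log2 scale. Chance flags about 1 set in 20. SLC7A7 was lowest in progesterone R2, at 0.436 CPM. DMSO R9 was lowest for SLC6A8, at 26.3 CPM, and for SLC38A8, at 0.454 CPM. DMSO R3 was lowest for SLC43A2, at 18.1 CPM.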

How the results depend on the processing

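The count of 1 transporter past the threshold was the same under the other scalings, filters, rounding, estimation, limma voom and a term for DMSO R7 and R9. It was 5 with DESeq2, 0 without R7 and R9, 0 at a threshold of 0.01, and between 0 and 4 with 1 library left out (4 without DMSO R1, 3 without DMSO R3, 0 otherwise). The count over all genes moved too, to 1830 with DESeq2, 1782 without DMSO R1, 795 without DMSO R3 and 42 to 82 without any 1 other library, against 359 with all 8 in edgeR. Without DMSO R1 the calls were SLC1A5, SLC6A17, SLC7A8 and SLC36A1, and without DMSO R3 the same except SLC1A5. With the column number as a replicate block, 4 passed (SLC3A2, SLC6A6, SLC6A17 and SLC7A8) and 2531 genes in all, from a fit that leaves 1 residual degree of freedom. Same-numbered columns, R1 and R3, deviated together with correlations of 0.226 and 0.210, but 2 numbers do not establish a pairing.

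Log2 fold changes that turned sign without R7 and R9 were 0.070 for SLC1A4, -0.41 for SLC6A6, 0.14 for SLC6A9, 0.21 for SLC7A2, 0.25 for SLC7A11, -0.080 for SLC38A8, 0.16 for SLC38A9 and -0.22 for SLC43A3. With a term for these libraries the values were 0.057, -0.42, 0.13, 0.19, 0.24, -0.10, 0.15 and -0.23 for the same genes. With the block they were 0.12 for SLC1A4, -0.23 for SLC6A6, 0.091 for SLC6A9, 0.067 for SLC7A1, -0.28 for SLC38A8 and 0.12 for SLC38A9. SLC38A8 was at -0.00065 with upper-quartile factors and -0.036 with voom. Leaving out 1 library turned a sign for SLC38A10 (-0.10 to 0.027), SLC38A3 (-0.18 to 0.010), SLC38A8 (-0.22 to 0.14), SLC38A9 (-0.14 to 0.013), SLC43A2 (-0.021 to 0.16), SLC43A3 (-0.080 to 0.92) and SLC6A6 (-0.052 to 0.60). Of these genes, SLC6A6 was called with the block and none in edgeR on the group alone, and the cause was not tested. Near 1 CPM, the standard errors of SLC38A3 and SLC43A3 were 0.26 and 0.56 at 235 and 204 counts in all.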
